A study of Mus musculus with 2 samples.

Results

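The genes described here build and regulate the junctions that hold epithelial cells together. They comprise 42 named mouse genes, of 25749 genes in the deposited tables, chosen by name as cadherins and catenins, desmosome and tight junction parts, polarity proteins, keratins, surface proteases, epithelial splicing and transcription regulators, and factors of the epithelial-mesenchymal transition (EMT). All 42 were found in both tables by their Ensembl identifiers. The values are from RNA sequencing of E14.1 cells, a mouse embryonic stem cell line, in 1 library of cells with T136A AHCY and 1 library of cells with WT AHCY. AHCY hydrolyses S-adenosylhomocysteine, the product of methyl transfer, and T136A denotes a threonine-to-alanine replacement in it. How the T136A cells were made, whether they derive from 1 clone, and how they were grown is not given in the sources used here. With 1 library per genotype there is no spread between replicates, no test of a difference was possible, and every "higher" and "lower" refers to this pair of libraries.

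Adherens junctions join neighbouring cells through cadherins, which bind catenins inside the cell and through them the actin cytoskeleton. Tight junctions, built from claudins, occludin and scaffold proteins, seal the space between cells, and desmosomes anchor keratin filaments. Mouse embryonic stem cells grow as compact colonies held by E-cadherin, and in EMT the factors Snai1, Zeb1 and Zeb2 are known to repress the E-cadherin gene and other epithelial genes.

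Levels are given as RPKM, reads scaled to the length of the exons and to the size of the library, a scale on which genes of different length can be compared. The log2 ratio is log2 of T136A RPKM plus 1 minus log2 of WT RPKM plus 1, and a gene counts as at least 2-fold apart when this ratio is -1 or less, or 1 or more. Folds are plain RPKM ratios, and their 95% counting intervals come from whole reads recovered from the RPKM values; they cover counting error alone, not differences between cultures. The implied totals were 18396840 reads for T136A and 17506152 for WT. The embryonic stem cell markers fixed for the check were all present: their summed level over 8 genes was 3837 RPKM in T136A and 4084 RPKM in WT. Of 7 fibroblast feeder markers found, 1 reached 1 RPKM in either library, Thy1, at 5.32 RPKM in T136A and 2.50 RPKM in WT; the summed level of the 7 was 6.63 RPKM in T136A and 3.54 RPKM in WT, with the collagen gene Col1a1 at 0.530 RPKM in T136A and 0.470 RPKM in WT and Postn listed at 0 in WT. Of 7 trophectoderm markers 1 reached 1 RPKM, Ascl2, at 2.88 RPKM in T136A and 1.44 RPKM in WT, and the list summed to 3.97 RPKM in T136A and 2.35 RPKM in WT. Of 7 primitive endoderm markers 4 reached it, led by Dab2 at 2.07 RPKM in T136A and 1.17 RPKM in WT, and the list summed to 7.93 RPKM in T136A and 4.40 RPKM in WT. The part of such cells in the results was not tested, and a smaller share of cells that express a gene cannot be told apart from less RNA of it per cell.

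The claudins Cldn3, Cldn4 and Cldn7, the polarity gene Crb3 and the E-cadherin gene Cdh1 were at least 2-fold lower in T136A, and 0 of the genes were at least 2-fold higher. The 5 are 13.2% of the 38 genes that reached 1 RPKM in at least 1 library; of all 12320 genes that did so, 3.10% were at least 2-fold lower and 3.13% at least 2-fold higher. The median log2 ratio of the 38 was -0.15, beside -0.03 over all 12320. Of the 38, 3 reached the minimum in WT alone (Dsp, Dsc2 and Cldn3) and 1 in T136A alone (Grhl2), and these could pass only through the library in which they were higher. The remaining 33 of the 38 lay within the 2-fold line. The other 4 of the 42, Cdh2, Cldn9, Esrp1 and Zeb2, stayed under 1 RPKM in both libraries. With 5 RPKM added in place of 1, 3 genes were at least 2-fold lower, without Cldn3 (-0.42) and Crb3 (-0.99), and with 0.1 RPKM added 7 were lower and 2 higher.

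**Figure D1:**
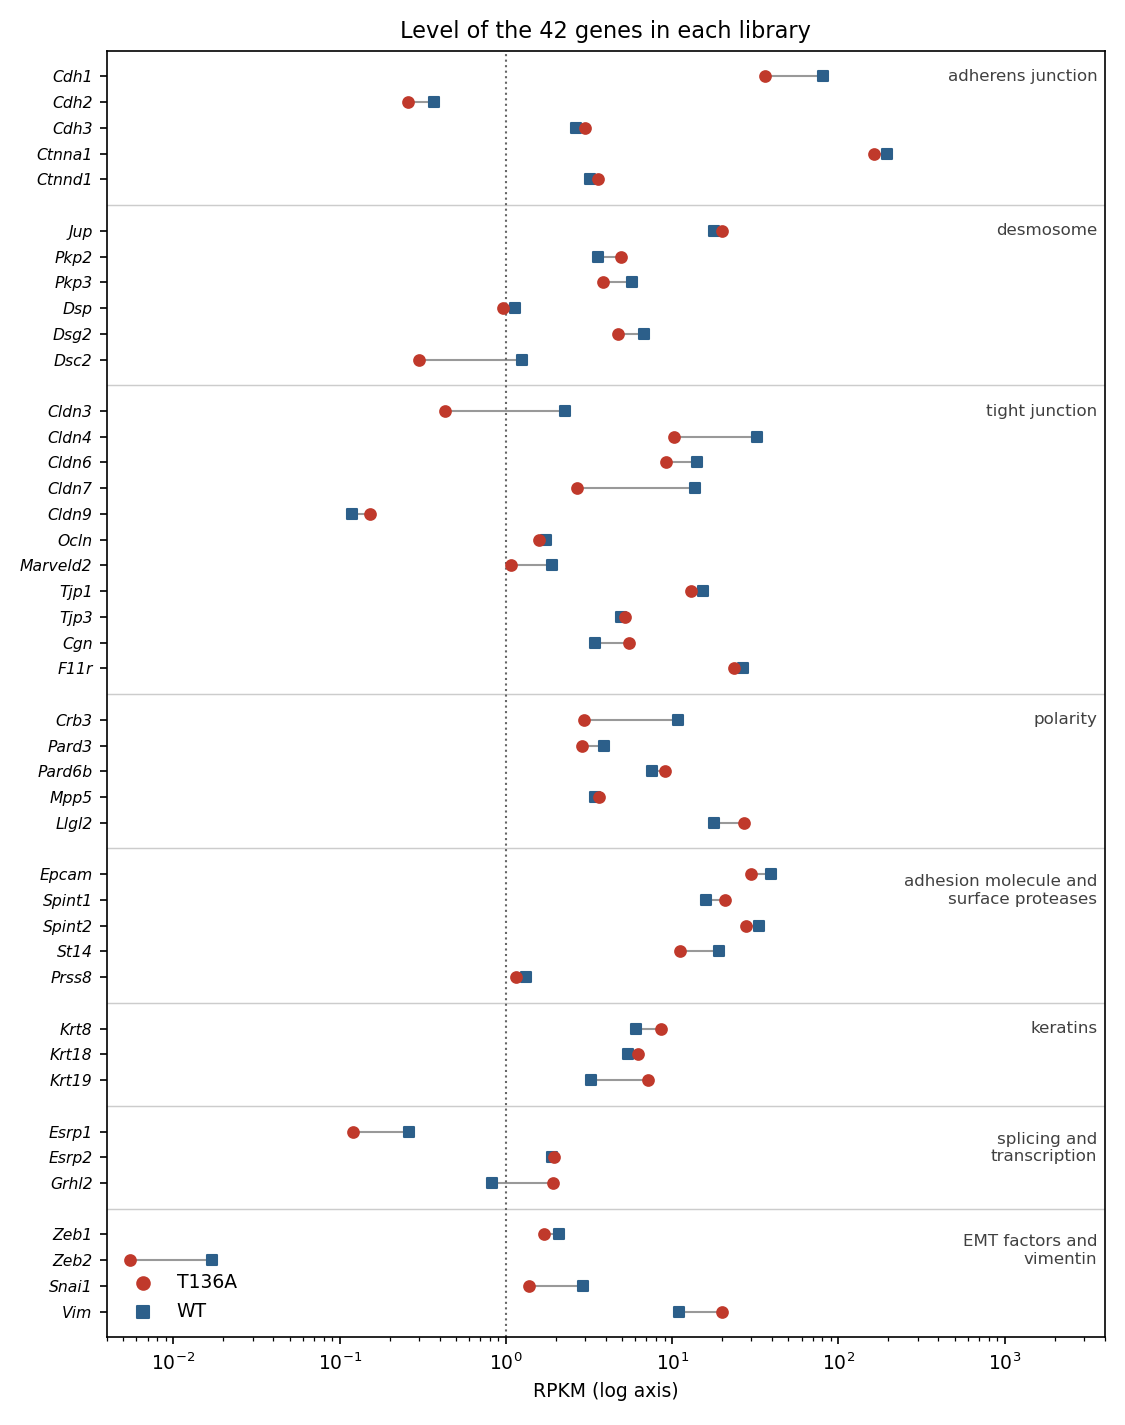
RPKM (log axis) of the 42 genes by group, with T136A as red circles and WT as blue squares joined by a line; the dotted line marks 1 RPKM. Among genes with both values above 1 RPKM the longest lines belong to Cldn7, Cldn4, Crb3 and Cdh1, while most other genes at or above 1 RPKM lie close to their WT level.

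Promoter sequence is shown for Cldn3, Cldn4, Cldn7 and Crb3, 4 of the 5 lower genes, so that their start sites can be compared. The hexamer CAGGTG, or CACCTG on the other strand, is the E-box core that SNAI and ZEB factors bind. It was chosen with earlier results of these data known, and a part of such factors in the lower levels was not tested. The windows run from 250 bases before to 50 after a start site in RefSeq, build GRCm38.p6, 5′ to 3′ on the strand of the gene, with each CAGGTG or CACCTG in capitals. Spint2, a protease inhibitor whose level was within 2-fold, is given for comparison. The promoter of Cdh1, a known target of SNAI and ZEB factors, was not analysed here.

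Cldn7, downstream start (chr11:69965171-69965470, plus strand): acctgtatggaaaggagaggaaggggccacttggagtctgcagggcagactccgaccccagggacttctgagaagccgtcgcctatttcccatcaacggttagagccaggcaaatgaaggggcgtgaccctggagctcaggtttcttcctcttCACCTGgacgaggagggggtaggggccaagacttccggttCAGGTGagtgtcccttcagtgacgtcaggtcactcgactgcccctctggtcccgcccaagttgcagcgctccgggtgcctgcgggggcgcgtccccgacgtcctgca
Cldn7, upstream start (chr11:69964529-69964828, plus strand): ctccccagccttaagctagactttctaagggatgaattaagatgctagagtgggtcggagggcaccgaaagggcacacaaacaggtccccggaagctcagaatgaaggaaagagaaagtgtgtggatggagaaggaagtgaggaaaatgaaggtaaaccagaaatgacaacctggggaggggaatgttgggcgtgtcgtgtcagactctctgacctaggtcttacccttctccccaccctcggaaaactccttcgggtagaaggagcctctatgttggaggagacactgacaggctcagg
Cldn4 (chr5:134946885-134947184, minus strand): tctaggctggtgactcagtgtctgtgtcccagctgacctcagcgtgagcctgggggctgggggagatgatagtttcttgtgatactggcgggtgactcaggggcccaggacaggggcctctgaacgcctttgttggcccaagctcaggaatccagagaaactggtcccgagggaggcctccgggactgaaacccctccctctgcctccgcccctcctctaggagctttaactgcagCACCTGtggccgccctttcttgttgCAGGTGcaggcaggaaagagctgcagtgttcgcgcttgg
Cldn3 (chr5:134985964-134986263, plus strand): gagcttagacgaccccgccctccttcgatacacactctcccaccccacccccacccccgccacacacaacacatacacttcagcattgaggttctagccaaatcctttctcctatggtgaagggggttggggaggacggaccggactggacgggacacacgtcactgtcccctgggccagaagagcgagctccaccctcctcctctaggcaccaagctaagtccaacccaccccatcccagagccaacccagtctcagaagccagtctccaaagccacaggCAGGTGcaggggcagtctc
Crb3 (chr17:57061951-57062250, plus strand): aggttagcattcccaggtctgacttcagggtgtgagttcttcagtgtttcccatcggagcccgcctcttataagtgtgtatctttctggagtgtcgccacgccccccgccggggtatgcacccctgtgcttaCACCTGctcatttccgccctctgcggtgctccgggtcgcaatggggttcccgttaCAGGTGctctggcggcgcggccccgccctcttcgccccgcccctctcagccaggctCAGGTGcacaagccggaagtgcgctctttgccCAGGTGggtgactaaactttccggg
Spint2 (chr7:29281928-29282227, minus strand): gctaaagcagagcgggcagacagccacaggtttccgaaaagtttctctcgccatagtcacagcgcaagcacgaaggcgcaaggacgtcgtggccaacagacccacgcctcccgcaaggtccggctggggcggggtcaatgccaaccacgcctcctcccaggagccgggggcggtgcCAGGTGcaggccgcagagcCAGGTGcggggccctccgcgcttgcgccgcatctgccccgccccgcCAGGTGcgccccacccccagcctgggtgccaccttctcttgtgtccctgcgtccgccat

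The Crb3 window shown held 4 such hexamers, a number reached in 18 of the 32851 windows of the table (0.0548%). Another Crb3 window, starting at 57061981, overlaps it and holds the same 4, so that both count among the 18. The downstream Cldn7 window and the Cldn4 window held 2 each, the Cldn3 window 1, and the upstream Cldn7 window 0. Any windows of the 5 members on chromosome 18 were left out of the counts of members and kept in those over all genes. Of the 42 genes 24 had a window outside chromosome 18. Of these, 17 (70.8%) held at least 1 hexamer in any window, against 22.6% of all 27025 genes in the table. Among genes at or above 1 RPKM the shares were 73.9% of 23 members and 21.2% of 8904 genes. Members had more windows per gene, 34 for 24 genes against 32851 for 27025, which can raise a share counted in any window. Counted by window, the shares were 61.8% of the 34 and 20.2% of the 32851. Spint2, with 3 hexamers, had a log2 ratio of -0.25, and Pard6b, with 2, had one of 0.23. A match is a run of letters and does not show that a factor binds there.

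E-cadherin, encoded by Cdh1, is the cadherin that holds embryonic stem cells to each other. Cdh1 (ENSMUSG00000000303; chromosome 8, 106603351 to 106670246, plus strand, GRCm38 in GENCODE M21) was at 36.2 RPKM in T136A, from 3047 recovered reads, and at 80.3 RPKM in WT, from 6432 reads. It was 2.22-fold lower in T136A, with a counting interval of 2.12 to 2.32. Its level exceeded that of 85.8% of the 12320 genes in T136A and 93.8% in WT, which placed it among the abundant transcripts of both libraries. P-cadherin, Cdh3, whose gene lies 46.05 kb before Cdh1 on the same strand, was at 3.0 RPKM in T136A and 2.63 RPKM in WT, and its interval of 0.942 to 1.38 for T136A over WT included 1. N-cadherin, Cdh2, the cadherin that replaces E-cadherin in classical EMT, was at 0.256 RPKM in T136A (38 reads) and 0.368 RPKM in WT (52 reads). N-cadherin was under 1 RPKM in both libraries, and Cdh1 made up 91.7% of the summed RPKM of Cdh1, Cdh2 and Cdh3 in T136A, against 96.4% in WT.

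The catenins Ctnna1, Ctnnd1 and Ctnnb1 were within 2-fold. α-catenin, Ctnna1, which links β-catenin to actin, was the most abundant of the 42 genes, at 165 RPKM in T136A and 197 RPKM in WT. p120-catenin, Ctnnd1, which holds cadherin at the surface, was at 3.56 RPKM in T136A and 3.21 RPKM in WT, with an interval of 0.972 to 1.27 that included 1. β-catenin, Ctnnb1, of the related list, which binds the cadherin tail and carries Wnt signals, was at 118 RPKM in T136A and 88.0 RPKM in WT, with an interval of 1.30 to 1.38 for T136A over WT. Ctnnb1 was higher in T136A and Ctnna1 lower, but whole reads were not recovered for Ctnna1, so that it has no counting interval. The ratio of Cdh1 to Ctnna1 was 0.220 in T136A and 0.408 in WT. Of 9 other adherens junction genes at or above 1 RPKM, Ctnnb1 included, 0 lay past the 2-fold line, 6 had a log2 ratio above 0 and 3 below 0, and their median was 0.48. The nectin Nectin2, an adhesion protein of the immunoglobulin family, stood at 29.5 RPKM in T136A and 15.7 RPKM in WT. Nectin4 was at 1.76 RPKM in T136A and 0.595 RPKM in WT, and the cadherin Cdh24 at 2.55 RPKM in T136A and 1.09 RPKM in WT. The 3 below 0, lower in T136A as Cdh1 was, were Nectin3, Afdn and Plekha7. Nectin3 was at 1.29 RPKM in T136A and 1.90 RPKM in WT. Afdn (afadin), which links nectins to actin, was at 6.19 RPKM in T136A and 8.67 RPKM in WT, and Plekha7 at 5.62 RPKM in T136A and 7.70 RPKM in WT.

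**Figure D2:**
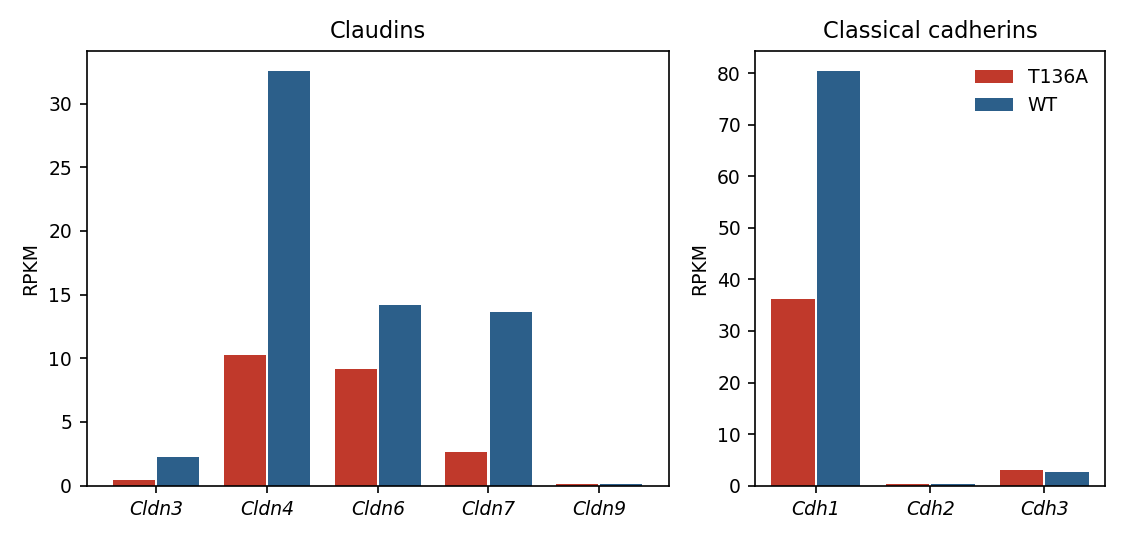
RPKM of the 5 claudins among the 42 genes (left) and the 3 classical cadherins (right), with T136A in red beside WT in blue, 1 library each and no error bars. Cldn4 is the highest of these claudins in both libraries, and Cdh1 is the highest cadherin in both, at 36.2 RPKM in T136A and 80.3 RPKM in WT.

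Claudins are the strands of the tight junction, and 3 of the 5 among the 42 genes were at least 2-fold lower in T136A. Cldn7 (ENSMUSG00000018569; chromosome 11, 69964779 to 69967885, plus strand), a claudin of simple epithelia, was at 2.68 RPKM in T136A (96 reads) and 13.6 RPKM in WT (465 reads), 5.09-fold lower with an interval of 4.08 to 6.41. Its log2 ratio of -1.99 held rank 30 from the lowest of 12320 genes. Cldn4 (ENSMUSG00000047501; chromosome 5, 134945119 to 134946934, minus strand) was at 10.3 RPKM in T136A (343 reads) and 32.5 RPKM in WT (1034 reads), 3.17-fold lower with an interval of 2.80 to 3.59. Cldn3 (ENSMUSG00000070473; chromosome 5, 134986214 to 134987472, plus strand), 39.28 kb from Cldn4, was at 0.432 RPKM in T136A (10 reads) and 2.27 RPKM in WT (50 reads). It was 5.25-fold lower, and its few reads gave a wide interval of 2.63 to 11.6. The neighbours Cldn3 and Cldn4 were both at least 2-fold lower, and of the neighbours Cdh1 and Cdh3 only Cdh1 was.

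Cldn6, a claudin of early embryonic epithelia, was at 9.17 RPKM in T136A and 14.2 RPKM in WT, a log2 ratio of -0.58 within the 2-fold line. Cldn9, on the other strand with 137 bases between the genes, was at 0.152 RPKM in T136A and 0.119 RPKM in WT. These claudins are similar in sequence and whole reads could not be recovered for either, so their values are less certain. Cldn12, a claudin of the related list outside the 42, was at 9.49 RPKM in T136A (738 reads) and 9.01 RPKM in WT (667 reads), with an interval of 0.947 to 1.17 that included 1. The 8 further claudins found in that list were all under 1 RPKM, with a highest level of 0.615 RPKM in T136A and 0.134 RPKM in WT. The summed RPKM of the 5 claudins was 22.7 in T136A and 62.7 in WT, and with Cldn12 it was 32.2 in T136A and 71.7 in WT. Of the sum with Cldn12, Cldn12 was 29.5% in T136A and 12.6% in WT, Cldn6 28.5% in T136A and 19.8% in WT, and Cldn7 8.32% in T136A and 19.0% in WT. Cldn4 exceeded Cldn6 by 1.12-fold in T136A and by 2.29-fold in WT.

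The remaining tight junction genes were all within 2-fold. Occludin, Ocln, was at 1.58 RPKM in T136A and 1.73 RPKM in WT, with an interval of 0.708 to 1.18 that included 1. Marveld2, or tricellulin, which seals the corners where 3 cells meet, lies 43.24 kb from Ocln and was 1.76-fold lower in T136A (interval 1.29 to 2.41), at 1.08 RPKM in T136A and 1.89 RPKM in WT. The scaffolds that tie claudins to actin had log2 ratios on both sides of 0. Tjp1 (ZO-1) was at 13.0 RPKM in T136A and 15.4 RPKM in WT, Tjp3 (ZO-3) at 5.24 RPKM in T136A and 4.95 RPKM in WT, and cingulin, Cgn, at 5.49 RPKM in T136A and 3.42 RPKM in WT, the last 1.60-fold higher in T136A (1.40 to 1.83). The junctional adhesion molecule F11r was at 23.4 RPKM in T136A and 26.6 RPKM in WT. Over the tight junction group, 8 of the 10 genes at or above 1 RPKM had a log2 ratio below 0, with a median of -0.35, and 3 of them were past the 2-fold line. Over all 12320 genes the median was -0.03, and 3.10% were at least 2-fold lower. Of all genes at or above 1 RPKM with a promoter window, 52.1% without the hexamer and 55.8% with it were below 0.

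Among 15 other tight junction genes at or above 1 RPKM, 2 were at least 2-fold lower and 0 higher, with a median log2 ratio of -0.29. Ildr1, an angulin that recruits tricellulin to those corners, was at 6.30 RPKM in T136A and 16.6 RPKM in WT. Amotl2, an angiomotin-like protein of junctions and of the Hippo pathway, was at 2.69 RPKM in T136A (311 reads) and 8.67 RPKM in WT (954 reads). The tricellular pair Ildr1 and Marveld2 was lower in T136A, with Ildr1 alone past the 2-fold line.

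The polarity genes set the apical side of the cell. Crb3 (ENSMUSG00000044279; chromosome 17, 57059105 to 57065918, plus strand), the Crumbs protein of the apical membrane, was at 2.95 RPKM in T136A (85 reads) and 10.8 RPKM in WT (297 reads), 3.67-fold lower with an interval of 2.88 to 4.73. Its log2 ratio of -1.58 held rank 68 from the lowest, close to Cldn4 at rank 72. The partners of Crb3 among the 42 genes were within 2-fold. Patj, a further partner from the related lists, was under 1 RPKM in both libraries. Its level was 0.390 RPKM in T136A (94 reads) and 0.829 RPKM in WT (190 reads). Patj was thus 2.12-fold lower in T136A in plain RPKM (1.65 to 2.75), and at -0.40 on the log2 scale. Mpp5 (Pals1), the adaptor that binds the Crumbs tail, was at 3.64 RPKM in T136A and 3.45 RPKM in WT, with an interval of 0.937 to 1.19. Pard6b, of the Par complex, was at 9.04 RPKM in T136A and 7.58 RPKM in WT, and Pard3 at 2.89 RPKM in T136A and 3.89 RPKM in WT. Llgl2, which marks the basolateral side and opposes the Par complex, was 1.52-fold higher in T136A (1.42 to 1.62), at 27.1 RPKM in T136A and 17.8 RPKM in WT. Of 14 other polarity genes at or above 1 RPKM, 0 lay past the 2-fold line, and their median log2 ratio was -0.03; the scaffold Dlg1, at 9.22 RPKM in T136A and 13.5 RPKM in WT, and Dlg5, at 7.59 RPKM in T136A and 5.36 RPKM in WT, were at its ends.

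Of the 6 desmosome genes 0 lay past the 2-fold line. Plakoglobin, Jup, shared by desmosomes and adherens junctions, was the highest, at 19.9 RPKM in T136A and 17.8 RPKM in WT. The plakophilins, which link cadherins to desmoplakin, went apart: Pkp2 was at 4.90 RPKM in T136A and 3.58 RPKM in WT, and Pkp3 at 3.85 RPKM in T136A and 5.70 RPKM in WT, with intervals for T136A over WT of 1.19 to 1.58 for Pkp2 and 0.573 to 0.794 for Pkp3. The desmosomal cadherin Dsg2 was at 4.71 RPKM in T136A and 6.79 RPKM in WT. Its partner Dsc2 was at 0.299 RPKM in T136A (29 reads) and 1.26 RPKM in WT (116 reads), 4.20-fold lower in plain RPKM (2.78 to 6.55). At these low levels the added 1 RPKM kept its log2 ratio at -0.80, inside the 2-fold line and the nearest of the 42 genes to it on the lower side. Desmoplakin, Dsp, was at 0.957 RPKM in T136A and 1.13 RPKM in WT, with an interval that included 1. Of the other desmosome genes 3 reached 1 RPKM, led by Perp at 28.7 RPKM in T136A and 23.8 RPKM in WT, and all 3 were within 2-fold.

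**Figure D3:**
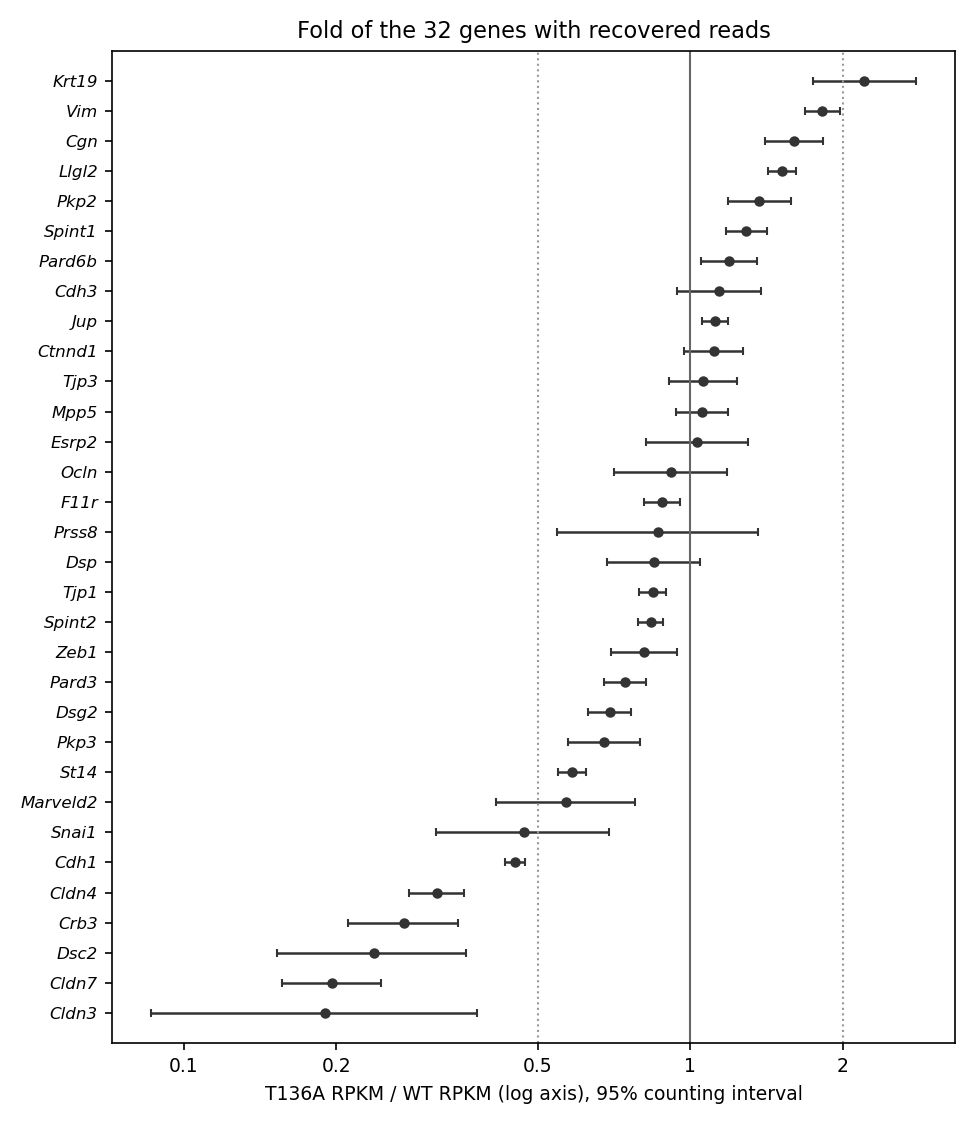
T136A RPKM over WT RPKM (log axis) for the 32 genes at or above 1 RPKM with recovered reads, with bars for the 95% counting interval; dotted lines mark 2-fold in each direction. The intervals of Cldn3, Cldn7, Dsc2, Crb3, Cldn4 and Cdh1 lie below 0.5, that of Vim lies between 1.68 and 1.98, and 8 intervals include 1.

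Whole reads were recovered in both libraries for 32 of the 38 genes. The others, Ctnna1, Cldn6, Epcam, Krt8, Krt18 and Grhl2, have no counting interval. Over the 32, the interval of the fold lay below 1 for 16, above 1 for 8, and included 1 for 8. Over all 10769 genes with recovered reads the interval lay below 1 for 36.9% and above 1 for 31.7%, so that an interval without 1 was common at this depth.

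EpCAM, an adhesion molecule of epithelia and of undifferentiated stem cells, was at 29.8 RPKM in T136A and 39.3 RPKM in WT, a log2 ratio of -0.39. The membrane protease matriptase, St14, was 1.71-fold lower in T136A (1.61 to 1.83), at 11.2 RPKM against 19.2 RPKM in WT. Its inhibitor Spint1 was at 20.7 RPKM in T136A and 16.1 RPKM in WT, an interval of 1.18 to 1.42 for T136A over WT, and the related inhibitor Spint2 was at 27.8 RPKM in T136A and 33.4 RPKM in WT. The ratio of St14 to Spint1 was 0.540 in T136A and 1.19 in WT, with the inhibitor above the protease in T136A and the protease above the inhibitor in WT. Prostasin, Prss8, which acts with matriptase, was at 1.14 RPKM in T136A (39 reads) and 1.33 RPKM in WT (43 reads), with an interval that included 1. F2rl1, the receptor PAR2 that matriptase can activate, was at 12.7 RPKM in T136A (641 reads) and 4.31 RPKM in WT (207 reads). It was the 1 gene of 8 at or above 1 RPKM in the list of other epithelial regulators and surface genes that was at least 2-fold higher; 0 of the 8 were at least 2-fold lower.

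The 3 keratins among the 42 genes, all of simple epithelia, were higher in T136A, on the other side of 0 from Cldn3, Cldn4, Cldn6 and Cldn7. Of these 3, 0 were past the 2-fold line. Krt19 was at 7.12 RPKM in T136A (243 reads) and 3.23 RPKM in WT (105 reads), 2.20-fold higher in plain RPKM (1.74 to 2.80) and at 0.94 on the log2 scale, the nearest of the 42 genes to the 2-fold line on the higher side. Krt8 was at 8.52 RPKM in T136A and 6.04 RPKM in WT. Its filament partner Krt18, 23.7 kb away, was at 6.21 RPKM in T136A and 5.43 RPKM in WT. Whole reads could not be recovered for Krt8 and Krt18, and both have processed pseudogenes that could share their reads. Among other keratins Krt42 was the highest, at 41.0 RPKM in T136A and 38.6 RPKM in WT, and Krt23 was at 1.04 RPKM in T136A (30 reads) and 0.0730 RPKM in WT (2 reads). Krt10, a keratin of stratified epithelia, lay on the lower side, at 0.926 RPKM in T136A (36 reads) and 1.70 RPKM in WT (63 reads), with an interval of 0.351 to 0.832 for T136A over WT. Of these other keratins 0 of the 3 at or above 1 RPKM were past the 2-fold line on the log2 scale. Krt7, another keratin of simple epithelia, was under 1 RPKM and lower in T136A, at 0.185 RPKM against 0.478 RPKM in WT, without recovered reads. Krt20, also under 1 RPKM, was higher, at 0.592 RPKM in T136A (21 reads) and 0.119 RPKM in WT (4 reads).

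**Figure D4:**
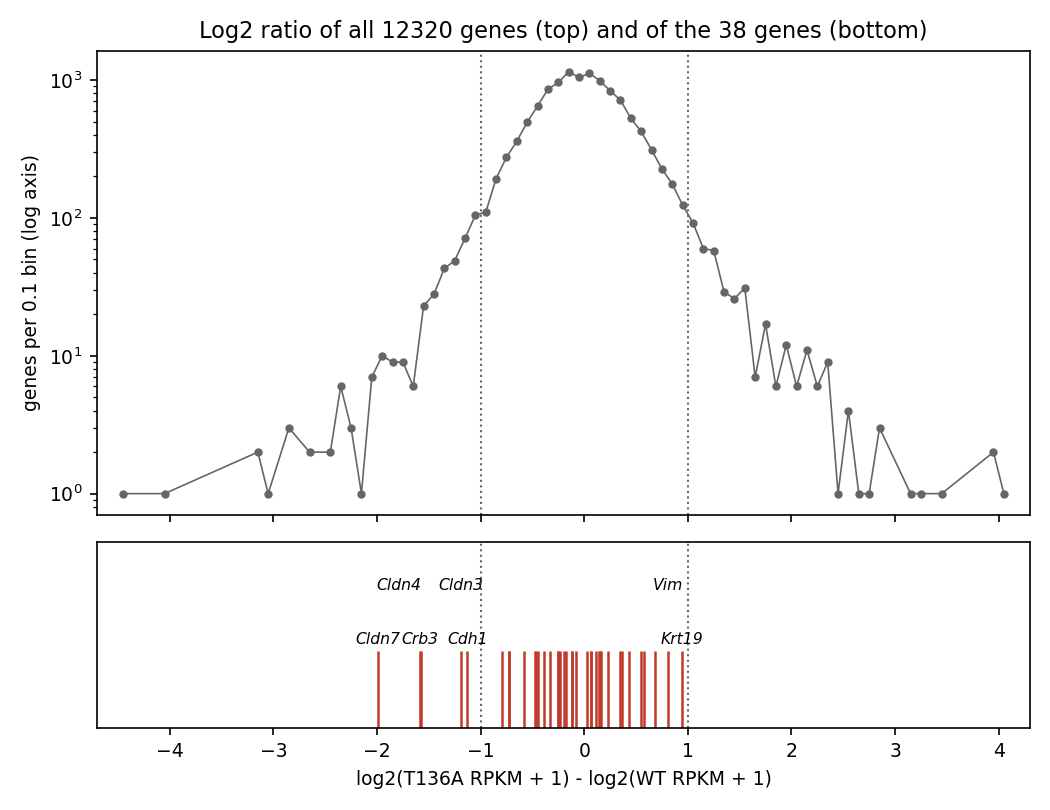
Number of genes per 0.1 bin of log2 ratio (log axis) for all 12320 genes at or above 1 RPKM (top) and 1 line per gene for the 38 genes described here (bottom); dotted lines mark the 2-fold lines. Cldn7, Crb3, Cldn4, Cldn3 and Cdh1 lie past the lower line, and Krt19, at 0.94, is the nearest to the upper line.

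The 3 regulators of epithelial identity stayed under 2 RPKM in both libraries. Grhl2, a transcription factor that maintains Cdh1 and claudin expression in epithelia, was at 1.92 RPKM in T136A and 0.820 RPKM in WT, 2.34-fold higher in plain RPKM and at 0.68 on the log2 scale. Of its relatives, Grhl3 was at 20.9 RPKM in T136A and 13.4 RPKM in WT, and Grhl1 at 1.77 RPKM in T136A and 2.24 RPKM in WT. The splicing regulator Esrp2 was at 1.95 RPKM in T136A and 1.90 RPKM in WT, with an interval of 0.817 to 1.30. Esrp1 was at 0.121 RPKM in T136A (14 reads) and 0.263 RPKM in WT (29 reads). Isoforms that these factors choose cannot be seen in gene-level values. Ap1m2, the adaptor subunit of basolateral sorting and a gene of the related list, was at 2.89 RPKM in T136A and 6.19 RPKM in WT, a log2 ratio of -0.88.

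Of the repressors that drive EMT, Snai1 and Zeb1 were lower in T136A, inside the 2-fold line, and Zeb2 was near 0 in both libraries. Snai1 was at 1.37 RPKM in T136A (41 reads) and 2.92 RPKM in WT (83 reads), 2.13-fold lower in plain RPKM (1.45 to 3.17) and at -0.72 on the log2 scale. Zeb1 was at 1.70 RPKM in T136A and 2.10 RPKM in WT, and Zeb2 at 0.00545 RPKM in T136A (2 reads) and 0.0172 RPKM in WT (6 reads). Snai1 and Zeb1 lay on the same side of WT as Cdh1, Cldn4, Cldn7 and Crb3. These are RNA levels and do not measure the activity of a repressor, and a part of these factors in the lower levels was not tested. Vimentin, Vim, the intermediate filament of mesenchymal cells that stem cells in culture also make, was 1.82-fold higher in T136A (1.68 to 1.98), at 19.9 RPKM against 10.9 RPKM in WT. The ratio of Vim to Krt8 was 2.34 in T136A and 1.81 in WT.

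Of 9 other EMT and mesenchymal genes at or above 1 RPKM, 2 were at least 2-fold lower in T136A and 0 were higher, with a median log2 ratio of -0.21. Fibronectin, Fn1, a matrix protein and a common mark of EMT, was at 32.9 RPKM in T136A (7070 reads) and 93.4 RPKM in WT (19112 reads). Itga5, which forms the fibronectin receptor with Itgb1, was at 13.2 RPKM in T136A and 31.9 RPKM in WT, and Itgb1 itself at 30.1 RPKM in T136A and 35.1 RPKM in WT. The gene of the Snail family Snai3 was at 1.27 RPKM in T136A (38 reads) and 0.491 RPKM in WT (14 reads), a log2 ratio of 0.61. Over 61 related genes at or above 1 RPKM outside the 42, 4 (6.56%) were at least 2-fold lower and 1 (1.64%) at least 2-fold higher.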

How the data were processed

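Messenger RNA was measured in 2 libraries, 1 per genotype. Trizol RNA and an Illumina TruSeq kit were used, per the labels' protocols. CASAVA 1.8 and mm9 appear without a role in the submitters' processing notes. The aligner, the read counter and the rule for strand are not stated there, so values of overlapping or near-identical genes are uncertain. The authors deposited 1 value per Ensembl gene. No unit is named; the deposited values were read as RPKM, because value times GENCODE M21 (GRCm38) union exon length times 1 constant per library gave whole reads, within 0.01, for 90.0% of positive values in T136A and 89.9% in WT. Of the 12320 genes at 1 RPKM or more, 10769 (87.4%) had whole reads in both libraries; intervals are exact conditional binomial (Clopper-Pearson) ones at 95%. Reads are not independent molecules, since no molecular identifiers were used.

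Symbols matched 25696 identifiers, and of identifiers sharing a symbol the one with the higher total was kept. The 42 genes, the related lists, the markers and the promoter hexamer were chosen with earlier results of these data known. The rule for names was every one of the 42, and from each related list the genes past the 2-fold line. Where these were fewer than 3, up to 3 with the largest absolute log2 ratios were added. It also took the highest marker of each list, and that of the embryonic stem cell list is not given. Outside this rule, Grhl1, Itgb1, Postn, Col1a1, Ctnnb1, Nectin3, Afdn, Plekha7, Cldn12, Patj, Krt7 and Krt20 were named after their values were seen. A gene that this rule names in a related list is not reported here. The steps were tested on simulated data. Python 3.11.15, numpy 2.4.6, pandas 2.3.3, scipy 1.17.1 and matplotlib 3.10.9 were used.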

Additional observations from a re-analysis of the deposited data

How the results depend on the processing

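No paired analysis was possible because each genotype has 1 library; for the same reason no library could be left out. The added constant moved the counts most. With 0.1 RPKM added, 2 of the 42 genes, Krt19 and Grhl2, were at least 2-fold higher, and over all genes 727 were lower and 723 higher; Dsc2 (-1.77) and Snai1 (-1.04) joined the lower genes, which made 7. With 5 RPKM added, 3 of the genes were lower, Cdh1, Cldn4 and Cldn7, without Cldn3 (-0.42) and Crb3 (-0.99), and over all genes 114 were lower and 101 higher. With a minimum of 5 RPKM, 209 of all genes were higher, against 386, and 4 of the 42 genes were lower. Without a minimum, with a mean of 1 RPKM, under median-of-ratios, upper-quartile or quantile scaling, without chromosome 14, which holds 0 of the 42, and with the counting interval required to leave out 1, the same count of 5 lower and 0 higher was found. The median log2 ratio of the genes ran from -0.23 to -0.06 over all alternatives. None of the 38 genes changed sign under the 3 scalings or the 2 other constants, and scalings moved the median of all genes by at most 0.0482. Of the genes with recovered reads, depth limits Cldn3, Cdh2, Zeb2, Esrp1 and Prss8 most, with at most 52 reads in each library.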

Other observations

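The following split, by a hexamer chosen with earlier results known, was made after the values were seen and is a description without a test. The genes come from 1 pair of libraries and are not replicates, and a part of the hexamer in any level was not tested. The split covers the 23 genes at or above 1 RPKM with a promoter window outside chromosome 18. The chromosome 18 members at or above 1 RPKM, Ctnna1, Dsg2, Dsc2 and Zeb1, were left out, and their log2 ratios were all below 0. Chromosome 18 was kept in the values over all genes. Of the 23, the 17 with at least 1 CAGGTG or CACCTG had a median log2 ratio of -0.33, and 13 of them were below 0. The 6 without it, Vim, Cgn, Spint1, Jup, Ctnnd1 and Tjp1, had a median of 0.25, and 1 of them, Tjp1, was below 0. Over all genes at or above 1 RPKM with a window, the 1888 with the hexamer had a median of -0.07, with 55.8% below 0, and the 7016 without it had a median of -0.03, with 52.1% below 0. The share at least 2-fold lower was 2.97% with the hexamer and 2.88% without it.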
